A study of Mus musculus with 4 samples.

Results

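The lysosomal proton pump, the cathepsin proteases and the LAMP membrane proteins were examined in lymph node B cells of miR-146a transgenic mice. The members were taken by gene symbol, from probe sets that the annotation assigns to a single gene. They were vacuolar ATPase symbols that begin with Atp6v or Atp6a, cathepsins with a single-letter name other than Ctss and Ctsh, and the numbered LAMPs. This gave 39 of the 17097 genes named on the array, of which 20 belong to the proton pump, 16 are cathepsins and 3 are LAMPs. They were covered by 67 probe sets, and the brightest probe set on average stands for each gene. Atp6v0c, Atp6v1c1 and Atp6v1g1 are not among the 39 members, so the pump was covered only in part. Both groups were male Balb/C mice aged 6 to 8 weeks, either wild type or miR-146a transgenic, with 2 mice per group and 1 Affymetrix array per mouse. Which promoter drives the transgene, and in which cells, the sources used here do not give.

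The lysosome is the acidic compartment in which cells digest proteins, lipids and sugars. Its pump has a V1 sector in the cytosol that hydrolyses ATP and a V0 sector in the membrane that carries protons inward. The acid pH activates the cathepsins, and heavily glycosylated LAMPs line the inner face of the membrane. In B cells these enzymes cut antigen taken up through the B cell receptor and degrade the invariant chain, so that peptides can load onto MHC class II. Many lysosomal genes carry a copy of the palindromic E-box CACGTG near their start, a site bound by TFEB and TFE3, the transcription factors best known for driving lysosomal genes. MYC, MAX and USF1 bind the same letters.

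The mature strand of miR-146a is shown because it names the transgene. The labels do not say which strand was measured or how far it was raised. The RefSeq sequence (GRCm38.p6, chr11:43374435-43374456, minus strand) has its seed, bases 2 to 8, in capitals.
mmu-miR-146a-5p: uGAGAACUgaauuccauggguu

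The promoters of the members were searched for 2 nested motifs in RefSeq windows that run from 250 bases before to 50 bases after a listed start (GRCm38.p6). Both motifs are palindromes, so a match counts for both strands. Windows were found for 32 of the 39 members, 35 windows in all. CACGTG occurred in 9 of the 35 windows (25.7%), each of a different gene, and in 7.15% of all 32851 windows. The longer TCACGTGA, which contains CACGTG, occurred in 5 of the 35 (14.3%) and in 0.974% of all windows. The 5 genes with the longer motif were Atp6v0d1, Atp6v0e, Atp6v1a, Ctsa and Ctsd, and the 4 with CACGTG alone were Atp6v0b, Lamp1, Ctsl and Ctsf. Ctsa holds a second copy, in lower case here, inside its stretch. The 5 stretches are shown with the motif in capitals, because they are the feature of these genes that the choice by symbol did not use.
Atp6v0d1 (chr8:105566034-105566095, minus strand): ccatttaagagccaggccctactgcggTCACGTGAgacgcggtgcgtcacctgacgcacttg
Atp6v0e (chr17:26676371-26676432, plus strand): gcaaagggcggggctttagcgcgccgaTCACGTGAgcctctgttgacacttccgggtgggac
Atp6v1a (chr16:44139357-44139418, minus strand): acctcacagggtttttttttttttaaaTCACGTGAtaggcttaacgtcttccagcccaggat
Ctsa (chr2:164833733-164833794, plus strand): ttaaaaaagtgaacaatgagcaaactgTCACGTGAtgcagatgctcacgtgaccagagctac
Ctsd (chr7:142387892-142387953, minus strand): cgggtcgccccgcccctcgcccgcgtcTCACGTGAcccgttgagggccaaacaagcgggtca

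The deposited values were log2 signals. The array of transgenic mouse 1 stood apart: its median was 4.48 against 4.59 to 4.61 on the other 3 arrays, and the median gene lay 0.14 below the wild type mean there but 0.01 above it for transgenic mouse 2. The groups also differed in markers of cell types. All 11 measured B cell markers were lower without overlap (median -1.02; log2 of the summed signal 13.85 and 13.91 in wild type, 12.92 and 13 in transgenic mice), and 9 of 10 T cell markers were higher, Cd4 being lower (median 0.35; 13.25 and 13.28 against 13.58 and 13.75). T cell transcripts were already bright in wild type mice, with Cd3d at 11.42 and 11.39, on arrays labelled as B cells. Neutrophil markers were higher (10 of 11 without overlap, median 0.80; summed 8.78 on both wild type arrays against 10.56 and 11.03). So were most of those of mast cells and basophils (6 of 8, median 1.27, summed 7.64 and 7.51 against 8.61 and 9.20) and of monocytes (9 of 11, median 0.28, summed 10.43 and 10.39 against 10.78 and 11.05). In the mast cell and basophil list Mcpt8 was dim and lower without overlap (-0.13), and Ms4a2 overlapped (0.08). Of 6 dendritic cell markers 3 were higher and 2 lower (median 0.04). In such mixed RNA, fewer cells of a type and less RNA per cell cannot be told apart.

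The 39 lysosomal genes did not move in one direction. Their median difference, transgenic minus wild type, was -0.03 on the log2 scale, against -0.05 over all genes. The proton pump had a median of -0.09 (-1.16 to 0.17), the cathepsins 0.07 (-0.72 to 0.52) and the LAMPs -0.29 (-0.52 to 0.10). Above the 40th percentile of mean signal the pump had a median of -0.14 and the cathepsins -0.03. The median of all genes above that percentile was -0.11. In 15 of the 39 members both transgenic arrays lay below both wild type arrays, against 31.4% of all probe sets, and in 11 both lay above, against 17.7%. For the members these are 38.5% and 28.2%. The other 13 members overlapped. After quantile normalization 10 members lay lower and 15 higher without overlap, against 26.4% and 26.2% of all probe sets.

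No member passed an adjusted p of 0.05 (limma, Benjamini-Hochberg over 45037 probe sets), a threshold passed by 0.0466% of probe sets. At an unadjusted limma p under 0.05, 5 members were lower, where 10.5% of all probe sets were, and 2 were higher, where 3.21% were. At an adjusted p of 0.1 only Atp6v0a1 passed, with 0.309% of probe sets. After quantile normalization Atp6v0a1, lower, and Ctsw, higher, passed 0.05, with 1.93% of probe sets passing, and after median centring Atp6v0a1 alone did, with 1.36% passing. Without transgenic mouse 1 the fit called 4 members (3 lower, 1 higher) and 9.19% of probe sets, and without transgenic mouse 2 it called 14 (11 lower, 3 higher) and 42.4%. Those fits take their spread from the wild type pair alone and assume that the remaining transgenic mouse varies like them. Without either wild type mouse limma called no member and no probe set, with 2 members at an unadjusted p under 0.05 in each case.

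**Figure D1:**
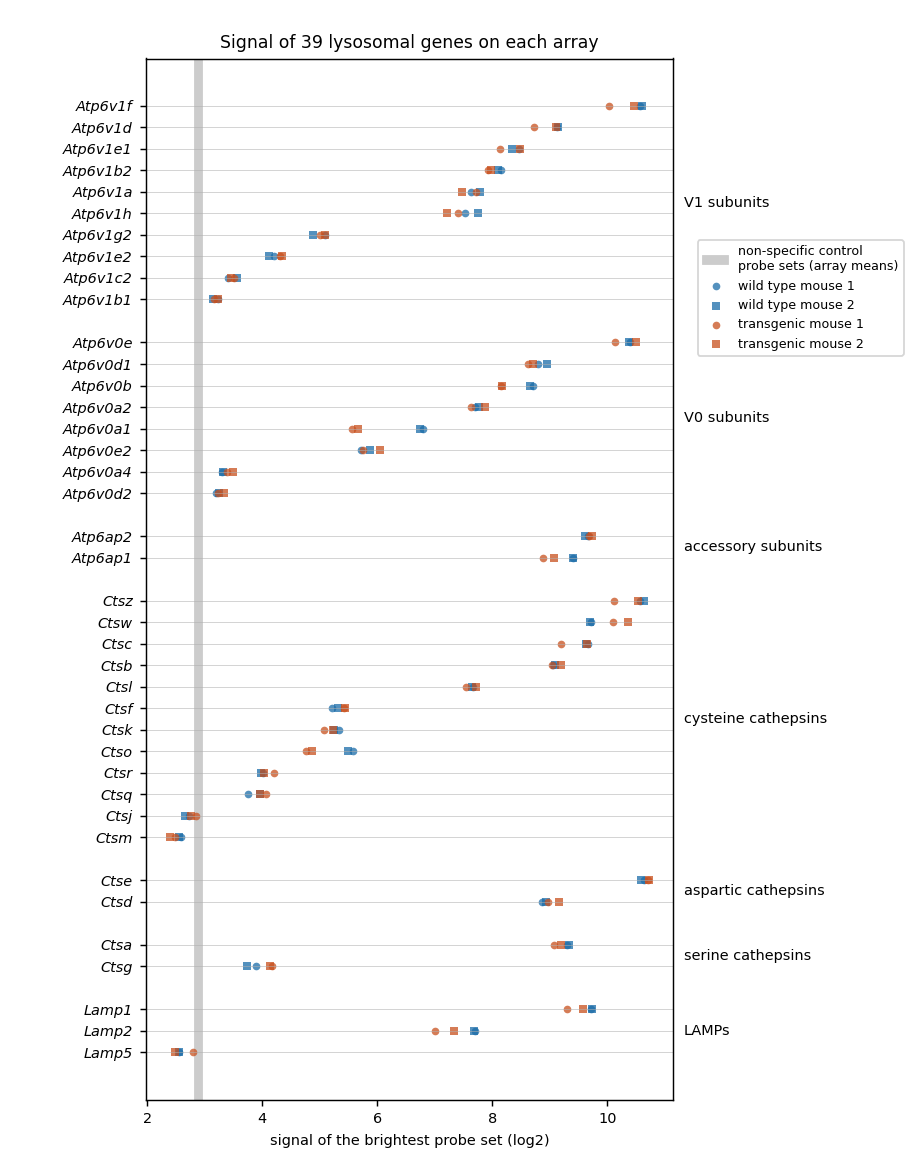
Log2 signal (horizontal axis) of the brightest probe set of each of the 39 genes on each array; circles and squares are mice 1 and 2 of a group, and the grey band spans the array means of non-specific control probe sets (2.83 to 2.95). Atp6v0a1, Ctso and Atp6v0b show the transgenic points clearly left of the wild type points, and Ctsw shows them to the right.

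Of the membrane sector of the pump, V0, 8 genes were measured, 3 lower without overlap and 1 higher. These shares, 37.5% and 12.5%, are near the 31.4% and 17.7% of all probe sets. The higher one, Atp6v0a4, and Atp6v0d2 lay below the 40th percentile of mean signal. Among the 16 members of the whole pump above it, 50% were lower and 12.5% higher without overlap. Over genes above that percentile the shares were 37.9% and 15.2%. The a subunit, which forms the path for protons and anchors the pump to particular membranes, showed the largest difference of any member. Atp6v0a1 (probe set 1417632_PM_at) had signals of 6.80 and 6.74 in wild type mice and 5.56 and 5.66 in transgenic mice. Both transgenic mice lay more than 1 log2 unit below both wild type mice. The difference was -1.16 (SE 0.10), a 2.23-fold lower signal, with a limma adjusted p of 0.086. It was -0.95 after quantile normalization (limma adjusted p = 0.0314) and -1.10 after median centring (limma adjusted p = 0.0192). Leaving out each mouse in turn kept it between -1.21 and -1.11 for the transgenic mice and between -1.19 and -1.13 for the wild type mice. In the same arrays the B cell markers had a median of -1.02, and their part in this difference was not tested.

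The other 3 probe sets of Atp6v0a1 were not of one kind. 1425227_PM_a_at read 4.61 and 4.72 against 3.96 on both transgenic arrays, a difference of -0.70 in the same direction. 1459924_PM_at read 5.06 and 4.89 against 4.91 and 5.0 (-0.02), and 1460650_PM_at read 3.74 and 3.77 in both groups. Averaged over all 4 probe sets the difference was -0.47 (limma adjusted p = 0.171). So the lower signal is carried by 2 of the 4 probe sets, and the other 2 overlapped.

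Atp6v0a2, the isoform of the a subunit best known from the Golgi and endosomes, did not share the difference. Its signals were 7.70 and 7.77 in wild type and 7.63 and 7.88 in transgenic mice, and the wild type values lay between the transgenic ones (0.02, SE 0.13). Its other 2 probe sets differed by 0.00 and 0.08. Within each array Atp6v0a1 minus Atp6v0a2 was -0.91 and -1.03 in wild type mice and -2.07 and -2.21 in transgenic mice. This log ratio does not depend on scaling by a constant, and its change was -1.17, with wild type and transgenic SDs of 0.08 and 0.10 (n = 2 each). An exact two-sided permutation test gave p = 0.333, the smallest that 2 against 2 allows. Tcirg1, the a3 isoform of osteoclasts and lymphocytes that the choice by symbol does not cover, read 7.39 on both wild type arrays and 6.67 and 7.15 on the transgenic ones (-0.48, limma adjusted p = 0.367). Atp6v0a4, the kidney isoform, lay near background at 3.30 and 3.44 (group means).

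**Figure D2:**
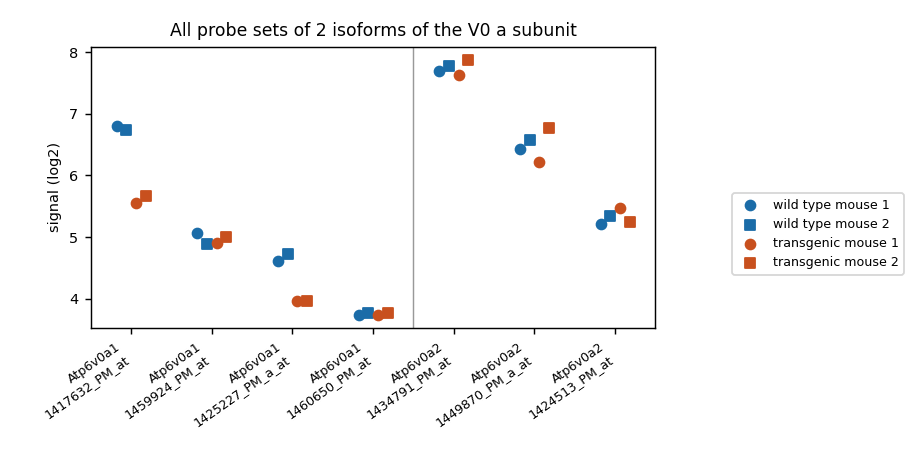
Log2 signal of every probe set of Atp6v0a1 (left of the line) and Atp6v0a2 (right) on the 4 arrays. The transgenic points lie below the wild type points for 1417632_PM_at and 1425227_PM_a_at of Atp6v0a1 and overlap them for the other probe sets.

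The promoter window of Atp6v0a1 held no CACGTG. It is shown whole because it belongs to the member with the largest difference (chr11:101010148-101010447, plus strand). That of Atp6v0b, the second largest difference in the pump, held CACGTG at 36 and 18 bases before its start, in capitals (chr4:117887280-117887579, minus strand).
Atp6v0a1: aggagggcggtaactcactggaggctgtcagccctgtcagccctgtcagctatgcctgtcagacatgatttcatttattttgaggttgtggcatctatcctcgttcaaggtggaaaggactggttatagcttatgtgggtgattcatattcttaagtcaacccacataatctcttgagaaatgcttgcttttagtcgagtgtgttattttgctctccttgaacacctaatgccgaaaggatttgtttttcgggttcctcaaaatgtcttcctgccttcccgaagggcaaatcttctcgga
Atp6v0b: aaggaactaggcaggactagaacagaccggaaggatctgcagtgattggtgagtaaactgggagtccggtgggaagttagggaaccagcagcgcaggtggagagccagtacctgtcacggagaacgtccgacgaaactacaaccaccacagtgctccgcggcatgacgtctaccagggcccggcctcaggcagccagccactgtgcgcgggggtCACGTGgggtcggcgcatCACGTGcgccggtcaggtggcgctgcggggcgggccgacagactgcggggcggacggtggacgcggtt

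Atp6v0b, a subunit of the proton-carrying ring (1437013_PM_x_at), read 8.70 and 8.66 in wild type and 8.15 and 8.16 in transgenic mice. The 2 transgenic arrays were nearly equal and lay well below the wild type pair. The difference was -0.52 (SE 0.10, limma adjusted p = 0.174), and its other 2 probe sets differed by -0.61 and -0.29, also without overlap. After quantile normalization it was -0.35 (limma adjusted p = 0.246). Without transgenic mouse 1 it was -0.52 and without transgenic mouse 2 -0.53. Without wild type mouse 1 it was -0.50 and without wild type mouse 2 -0.54.

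The remaining V0 members differed less. Atp6v0d1, which couples the ring to the central stalk, read 8.80 and 8.95 against 8.62 and 8.70 (-0.21, SE 0.11). Its pair Atp6v0d2, known from osteoclasts and macrophages, lay near background (group means 3.22 and 3.28). Atp6v0e read 10.40 and 10.37 against 10.14 and 10.50, with the 2 transgenic mice on either side of the wild type pair (-0.07, SE 0.15). Its isoform Atp6v0e2 read 5.72 and 5.87 against 5.76 and 6.04, also overlapping (0.10, SE 0.14). Their log ratio within arrays was 4.68 and 4.50 in wild type and 4.38 and 4.46 in transgenic mice. The change was -0.17, and the exact permutation p of 0.333 is the smallest that 2 against 2 allows.

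In the V1 sector, where ATP is hydrolysed, 10 genes were measured and their differences ran from -0.34 to 0.17. Atp6v1f, a small subunit of the rotor, read 10.56 and 10.60 in wild type mice and 10.02 and 10.46 in transgenic mice (-0.34, SE 0.17, limma adjusted p = 0.465). Most of this came from transgenic mouse 1, and without that mouse the difference was -0.12. Atp6v1h, a regulatory subunit that links the 2 sectors, read 7.52 and 7.75 against 7.40 and 7.22 (-0.32, SE 0.13). Here transgenic mouse 2 was the lower of the pair. Atp6v1b2, the widely expressed form of the B subunit in the ATP-hydrolysing head, read 8.15 and 8.10 against 7.92 and 7.98 (-0.17, SE 0.10, limma adjusted p = 0.504), and after quantile normalization the difference was 0.00.

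Atp6v1e1, the widely expressed form of the peripheral stalk subunit E, read 8.47 and 8.35 against 8.13 and 8.48 (-0.11, SE 0.15). Atp6v1e2, its testis form, read 4.20 and 4.11 against 4.31 and 4.34, both transgenic values higher by a small step (0.17, SE 0.10). Their log ratio within arrays averaged 4.26 in wild type and 3.98 in transgenic mice (exact permutation p = 0.333). Atp6v1d, of the rotor, was at 9.12 and 9.14 against 8.73 and 9.11 (-0.20), and Atp6v1a, the catalytic subunit, overlapped at 7.63 and 7.78 against 7.71 and 7.48 (-0.11). Atp6v1g2, the neuronal form of the G subunit, also overlapped (0.06). Atp6v1b1 and Atp6v1c2, forms better known from kidney and other epithelia, had group means of 3.19 to 3.49, near background.

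The 2 accessory subunits went different ways. Atp6ap1, which helps to assemble and guide the pump, read 9.40 and 9.41 in wild type mice and 8.88 and 9.08 in transgenic mice. The wild type pair was nearly equal and both transgenic mice lay below it (-0.43, SE 0.12, limma adjusted p = 0.261; -0.28 after quantile normalization). Atp6ap2, also called the prorenin receptor, read 9.66 and 9.61 against 9.68 and 9.74, a step of 0.08 (SE 0.10) that is smaller than its standard error. Its other probe sets differed by 0.04 and -0.01.

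**Figure D3:**
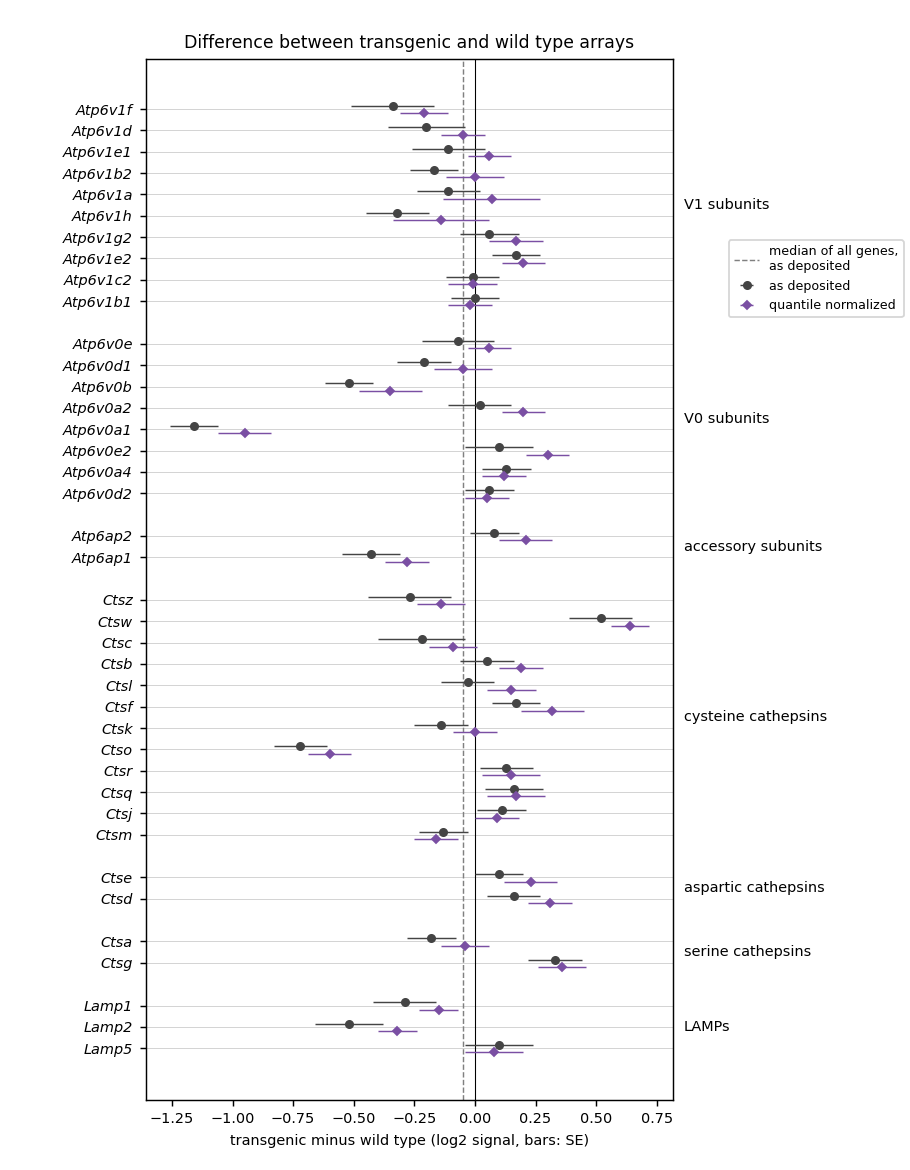
Difference between transgenic and wild type means (log2 signal, horizontal axis) for each member, with limma standard errors as bars, for values as deposited (circles) and after quantile normalization (diamonds). Atp6v0a1 at -1.16 and Ctso at -0.72 stand furthest from 0, followed by Atp6v0b and Lamp2 at -0.52 and Ctsw at 0.52, and most diamonds lie to the right of their circles.

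Of the 12 cysteine cathepsins 4 were lower and 5 higher without overlap (33.3% and 41.7%, against 31.4% and 17.7% of all probe sets, or 26.4% and 26.2% after quantile normalization). Ctsj, Ctsq and Ctsr of the higher ones and Ctsm of the lower ones lay below the 40th percentile of mean signal. Among all 11 cathepsins above that percentile, 4 were lower and 4 higher (36.4% each). Over genes above it the shares were 37.9% and 15.2%. Ctso, a widely expressed cysteine protease (1443084_PM_at, its only probe set), read 5.58 and 5.49 in wild type and 4.76 and 4.87 in transgenic mice. The groups were separated by more than 0.5 on the log2 scale. The difference was -0.72 (SE 0.11), a 1.65-fold lower signal with a limma adjusted p of 0.141. It was -0.60 after quantile normalization (limma adjusted p = 0.051) and -0.66 after median centring (limma adjusted p = 0.0536). Without transgenic mouse 1 it was -0.66 and without transgenic mouse 2 -0.78. Without wild type mouse 1 it was -0.67 and without wild type mouse 2 -0.76.

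Ctsw, also called lymphopain and known from CD8 T cells and natural killer cells, was the cathepsin with the largest higher signal. It read 9.71 and 9.70 in wild type mice and 10.09 and 10.35 in transgenic mice. Both transgenic mice lay above both wild type mice, mouse 2 more so. The difference was 0.52 (SE 0.13, limma adjusted p = 0.233), a 1.43-fold higher signal, and 0.64 after quantile normalization (limma adjusted p = 0.0405). Without transgenic mouse 1 it was 0.64 and without transgenic mouse 2 0.39. Without wild type mouse 1 it was 0.52 and without wild type mouse 2 0.51. Cd8a, a chain of the CD8 co-receptor, went from 8.80 and 9.02 to 10.02 and 10.09 on the same arrays. Among 10 natural killer cell markers, 5 were higher and 1 was lower without overlap (median 0.29; log2 of the summed signal 11.56 and 11.60 against 11.61 and 11.92). The part of these cells in the Ctsw signal was not tested.

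Other cysteine cathepsins of B cells and myeloid cells gave mixed readings. Ctsz, a carboxypeptidase, read 10.57 and 10.63 against 10.12 and 10.54 (-0.27, SE 0.17), with most of the difference in transgenic mouse 1; without it the difference was -0.06. Its 2 other probe sets differed by -0.31 and -0.56. Ctsc, which activates the granule serine proteases of leukocytes, overlapped in its brightest probe set at 9.67 and 9.62 against 9.19 and 9.65 (-0.22). Its probe set 1437939_PM_s_at was lower without overlap, at 6.45 and 6.48 against 5.70 and 6.17 (-0.53, limma adjusted p = 0.336), and the dimmest differed by 0.00. Ctsl overlapped at 7.67 and 7.64 against 7.54 and 7.71 (-0.03), with a dim probe set at 0.21.

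Ctsb, an abundant endopeptidase with 4 probe sets, gave different readings by probe set. The brightest read 9.05 and 9.09 against 9.04 and 9.20 (0.05, SE 0.11). 1448732_PM_at was higher, at 7.15 and 7.36 against 8.07 and 7.64 (0.61, limma adjusted p = 0.296), and 2 dimmer ones differed by -0.17 and -0.37 with overlap. Ctsf, at 5.21 and 5.31 against 5.43 and 5.44, was higher by a small step (0.17, SE 0.10). Ctsk, the collagen-cutting protease of osteoclasts, differed by -0.14 at group means of 5.29 and 5.16. Ctsj, Ctsm, Ctsq and Ctsr, cathepsins of the rodent placenta, had group means from 2.44 to 4.12 and are not known from B cells. They differed by -0.13 to 0.16, a range that also held Ctsd, Ctse and Ctsb.

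Both aspartic cathepsins read slightly higher, Ctse by about its standard error and Ctsd by more than its own. Ctse, an endosomal protease known from antigen-presenting cells and gastric epithelium, read 10.64 and 10.59 in wild type and 10.70 and 10.73 in transgenic mice. The groups did not overlap, but the step of 0.10 was no larger than its standard error (0.10, limma adjusted p = 0.672). Ctsd, the main aspartic protease of lysosomes, read 8.86 and 8.93 against 8.96 and 9.15 (0.16, SE 0.11; 0.31 after quantile normalization, limma adjusted p = 0.177). Without transgenic mouse 2 the Ctsd difference was 0.07 (SE 0.08).

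The 2 serine cathepsins differed in direction. Ctsa, a carboxypeptidase that also protects lysosomal galactosidase and neuraminidase, read 9.30 and 9.33 against 9.08 and 9.19 (-0.18, SE 0.10), and -0.04 after quantile normalization. Ctsg, a granule protease of neutrophils and mast cells, was dim, at 3.90 and 3.74 against 4.17 and 4.13 (0.33, SE 0.11, limma adjusted p = 0.314). On those arrays Cpa3, a mast cell carboxypeptidase, went from 4.79 and 4.66 to 6.71 and 7.45, and Ngp, a neutrophil granule protein, from 5.25 and 5.30 to 7.98 and 8.11. These were the largest differences of their lists. Elane (0.16) and Mpo (0.11) of the neutrophil list differed little. So did Mcpt8 (-0.13) and Ms4a2 (0.08) of the mast cell and basophil list. The part of mast cells and neutrophils in the Ctsg signal was not tested.

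Lamp1 and Lamp2, the main glycoproteins of the lysosomal membrane, were both lower. Lamp2, which also serves chaperone-mediated autophagy, read 7.70 and 7.68 in wild type and 7.01 and 7.34 in transgenic mice (-0.52, SE 0.14, limma adjusted p = 0.27). Its other 2 probe sets differed by -0.62 and, with overlap, by -0.16. Lamp1 read 9.71 and 9.73 against 9.29 and 9.58 (-0.29, SE 0.13, limma adjusted p = 0.433). Transgenic mouse 1 was the lower of the pair for both, and without it the differences were -0.35 and -0.14. Lamp5, known from neurons and plasmacytoid dendritic cells, read 2.49 to 2.80, below the mean of the non-specific controls on all 4 arrays.

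The transgenic mice differed from each other across the members. Transgenic mouse 1 read lower than mouse 2 in 30 of 39 members (median -0.11) and in 12680 of all 17097 genes (median -0.18). In mouse 1, 21 members lay below and 12 above both wild type values, and in mouse 2, 17 lay below and 18 above. For all genes these were 61.8% below and 27.2% above in mouse 1, and 37.7% and 43.0% in mouse 2. Atp6v0a1, Atp6v0b and Ctso lay below wild type by similar amounts in both mice, and Ctsw lay above it in both. Atp6v1f, Ctsz, Ctsc and Atp6v0e lay clearly lower in mouse 1 only.

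Probe sets of the same gene mostly pointed the same way. Of 28 further probe sets of the 15 members that had several, 21 had the sign of the brightest one and 25 differed from it by at most 0.5. The 3 that differed by more were 1459924_PM_at and 1460650_PM_at of Atp6v0a1 and 1448732_PM_at of Ctsb. The other 24 members rest on 1 probe set each. Of the 39 members, 10 lay below the 40th percentile of all probe sets (4.10) in mean signal: Atp6v0a4, Atp6v0d2, Atp6v1b1, Atp6v1c2, Ctsg, Ctsj, Ctsm, Ctsq, Ctsr and Lamp5.

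The motif in the promoter and the size of the difference were set side by side. The 5 members with TCACGTGA had differences of -0.21 to 0.16 (median -0.11), the 4 with CACGTG alone of -0.52 to 0.17 (median -0.16) and the 23 with neither of -1.16 to 0.33 (median -0.01). The last class holds 9 of the 10 dim members. Atp6v0a1 and Ctso, which were lowest, had no match in their windows. Tfeb itself read 7.03 and 7.07 in wild type mice and 6.33 on both transgenic arrays (-0.72, SE 0.10, limma adjusted p = 0.125; -0.49 after quantile normalization). Tfe3 read 7.09 and 7.18 against 6.55 and 7.0 (-0.35, limma adjusted p = 0.457).

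Other lysosomal genes were described by 6 further lists, which held 110 measured genes beside the members. None passed the limma threshold over all probe sets. At an unadjusted limma p under 0.05, 22 were lower (20%, against 10.5% of all probe sets and 13.8% of genes above the 40th percentile). At the same p, 3 were higher, where 3.21% of all probe sets were. The median of the 110 genes was -0.25, against -0.05 over all genes and -0.11 over genes above the 40th percentile. After quantile normalization the median was -0.05, with 1 gene lower and 1 higher past the threshold, which 1.93% of all probe sets passed. The list of 35 other hydrolases and their helpers had a median of -0.28 (-0.09 after quantile normalization), with 21 lower and 4 higher without overlap, 60% and 11.4%, against 37.9% and 15.2% of genes above the 40th percentile. In it Ifi30, the thiol reductase that unfolds antigens in lysosomes, read 11.29 and 11.30 against 10.42 and 10.75 (-0.71; -0.60 after quantile normalization, limma adjusted p = 0.0489). Ppt1, a thioesterase, differed by -0.63, Naglu, which degrades heparan sulfate, by -0.50, and Prcp, a carboxypeptidase, by -0.41, each without overlap and above 0.2 in limma adjusted p.

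Among 12 assembly factors and partners of the pump 7 were lower without overlap (58.3%) and none higher. Over genes above the 40th percentile the shares were 37.9% lower and 15.2% higher. The median of the 12 was -0.33 as deposited and -0.12 after quantile normalization, and limma called none in either. Rogdi, of the complex that assembles V1 on V0, differed by -0.63, and Clcn7 and its partner Ostm1, the chloride-proton exchanger of lysosomes, by -0.69 and -0.36. Other membrane proteins had a median of -0.11 over 24 genes, the same as genes above the 40th percentile, and of 0.02 after quantile normalization. Of the 24, 11 were lower and 5 higher without overlap (45.8% and 20.8%, against 37.9% and 15.2% of genes above the 40th percentile). At an unadjusted limma p under 0.05, 16.7% were lower, near the 13.8% of genes above that percentile. The 4 with the smallest p were all lower. They were Laptm5, a lysosomal protein of leukocytes, at -0.66, Slc38a9, an arginine sensor, at -0.73, Cln6 at -0.49 and the calcium channel Mcoln1 at -0.43. Sorting and delivery genes had a median of -0.24 over 15 (-0.06 after quantile normalization), with Vps33a (-0.54) and Vps41 (-0.38) of the HOPS tethering complex, Gga1 (-0.39), a sorting adaptor, and Gnptab (-0.67), which makes the mannose 6-phosphate tag. The 17 regulators had a median of -0.16, which turned to 0.01 after quantile normalization. Fnip1 went from -0.38 to -0.15 under that scaling, Mtor from -0.41 to -0.19 and Tfe3 from -0.35 to -0.13.

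Inhibitors of the cathepsins did not move together. Among 7 cystatins and stefins the median was 0.05, with 2 lower and 2 higher without overlap. That is 28.6% each, against 31.4% and 17.7% of all probe sets. Only 4 of the 7 lay above the 40th percentile. Cst7, cystatin F of cytotoxic lymphocytes and myeloid cells, read 8.04 and 8.05 in wild type mice and 8.97 and 9.19 in transgenic mice (1.03, SE 0.12, limma adjusted p = 0.106; 1.19 after quantile normalization, limma adjusted p = 0.0144). Cystatin F is known to act on Ctsc and other cathepsins inside the cell. Stfa2l1 was dim and differed by 0.46. Cstb and Cst3, the widely expressed stefin B and cystatin C, differed by -0.31 and -0.26.

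**Figure D4:**
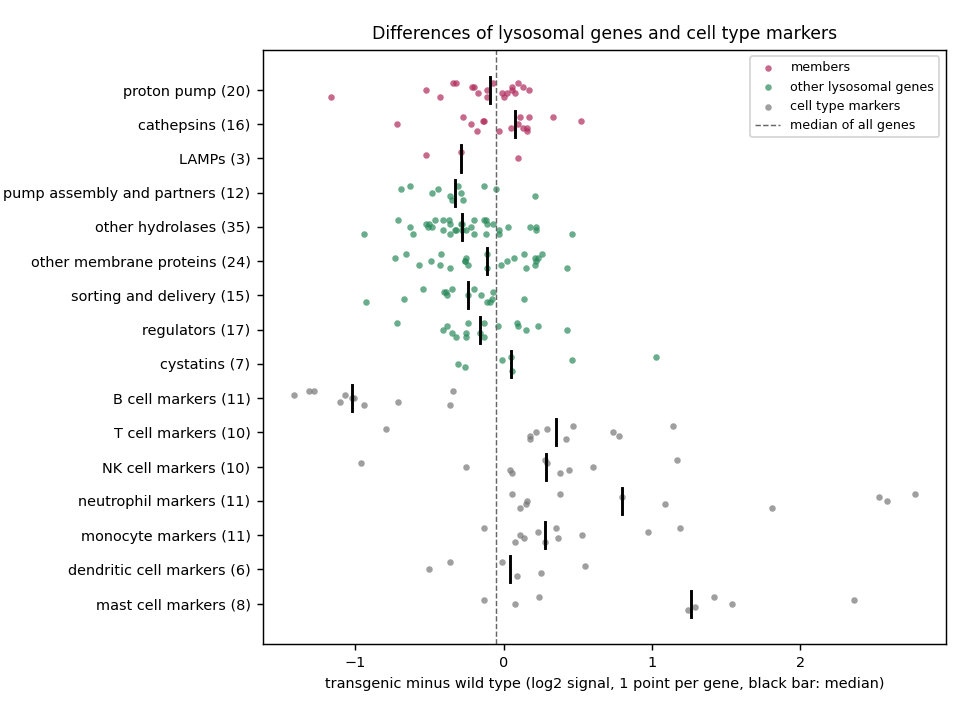
Difference between transgenic and wild type means (log2 signal, horizontal axis) for each gene of the members, the other lysosomal lists and the cell type markers, with the number of genes in brackets and the median as a black bar. The pump and cathepsin medians (-0.09 and 0.07) lie near the median of all genes (-0.05), and B cell markers lie furthest to the left (-1.02). The pump and cathepsin points include dim genes, and without those the medians were -0.14 and -0.03.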

How the data were processed

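The authors deposited 1 table of log2 signals, 45141 probe sets on 4 arrays. That the scale is log2 follows from their range, 2.02 to 13.03. RNA was labelled with a 3' in vitro transcription kit, per the labels' protocols; background correction, normalization and summarization are not given in the sources used here. Groups came from the sample titles. The platform's annotation names 1 gene for 28898 probe sets, several for 551 and none for 15588. All 39 members matched RefSeq by Entrez ID.

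The 45037 probe sets left after 104 controls went into a linear model in R 4.3.3 with limma 3.58.1 (lmFit, then eBayes; no replicate block, two-sided, Benjamini-Hochberg over all probe sets, threshold 0.05). The mouse numbers do not pair the groups in the labels, and the deviations of arrays that share a number were uncorrelated (0.014). The fit was tested on simulated data. Each group holds 2 mice, which limits the precision. The p-values weigh each difference against the spread between these mice, drawn by limma toward a value shared by all probe sets. The prior degrees of freedom were 2.69 and the residual ones 2. No counts or detection calls were used. Values on every array are given for the 16 members with the smallest p above the 40th percentile of mean signal, the brightest member of each role and pairs of isoforms, and for some others chosen after their values were seen; at most 4 genes are named per list, with Tcirg1, Tfeb and Tfe3. Members and lists were chosen with earlier results of these data known. Figures were drawn with matplotlib 3.10.9.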

Additional observations from a re-analysis of the deposited data

How the results depend on the processing

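Alternatives changed how many members passed and moved the medians slightly, but kept the direction of Atp6v0a1, Atp6v0b, Ctso, Ctsw, Atp6ap1, Lamp1 and Lamp2. No member passed as deposited; 1 passed at an adjusted p of 0.1, 2 after quantile normalization and 1 after median centring, and none with dim probe sets left out, with trended robust eBayes, with probe sets averaged per gene or with mouse number as a replicate block (adjusted p of Atp6v0a1 0.176 with the block, so that it also missed 0.1). Over all probe sets limma called 21 as deposited, 870 after quantile normalization, 614 after median centring, 51 with dim ones left out, 15 with the block, and 0 to 19110 with 1 array left out. Leaving out 1 array gave 0 to 14 members past the threshold, 17 to 21 lower and 12 to 18 higher without overlap (over all probe sets 38.8% to 59.2% and 24.6% to 40.3%), and medians of -0.08 to 0.03 for the members, -0.15 to 0.01 for the pump and 0.02 to 0.07 for the cathepsins. After quantile normalization the medians were 0.06, 0.02 and 0.15. With dim probe sets left out they were -0.14 for the 29 members that remained, -0.14 for the pump and -0.03 for the cathepsins (bright genes' median -0.11). Of those 29 members 14 were lower and 6 higher without overlap (48.3% and 20.7%). Among all probe sets that remained the shares were 39.8% and 14.7%. The sign changed for Atp6v0e and Atp6v1e1, each 0.06 after quantile normalization, and, over the arrays left out, for Atp6v0e (-0.25 to 0.11), Atp6v1e1 (-0.28 to 0.07), Atp6v0a2 (-0.11 to 0.14) and Atp6v0e2 (-0.04 to 0.25). Ctsl (0.15) and Atp6v1a (0.07) also changed sign after quantile normalization, Ctsl (0.02) and Atp6v1c2 (0.05) after median centring, Ctsl (0.09) with probe sets averaged, and Ctsb, Ctsl, Lamp5, Atp6v1a, Atp6v1c2 and Atp6v1g2 with an array left out. The cause of these changes was not tested. Differences near the background controls are not well measured.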
